A study of Mus musculus with 12 samples.

Results

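Of the mRNAs described in the literature as targets of miR-183-5p, 10 were followed here in RAW 264.7 cells, a mouse macrophage line: Foxo1, Egr1, Itgb1, Ppp2ca, Ppp2cb, Ezr, Btrc, Pdcd4, Akap12 and Idh2. The list is one of gene names and uses no measured value in its rule, and 35944 genes were listed in all. Of the 10 genes, 9 were among the 13923 genes with enough counts to be tested, and Egr1 was not. The macrophages had been exposed to extracellular vesicles (EVs) purified from MS-1, an endothelial cell line of the mouse. The dose was 3 µg of EV protein per ml for 48 h, in medium whose serum was depleted of EVs. Before use the EVs had been electroporated with a synthetic miRNA mimic, which gives 4 groups of 3 libraries: miR-183-5p-EVs, miR-222-3p-EVs, miR-142-5p-EVs and ctrl-EVs, whose mimic the study's methods name as the worm miRNA cel-miR-67. All 4 groups therefore received electroporated EVs, and no library of untreated cells is analysed here. Polyadenylated RNA was sequenced, and the libraries of each group carry the numbers 1 to 3.

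A miRNA guides an Argonaute protein to mRNAs that pair with its seed, the bases near its 5′ end, most often in the 3′ UTR. The paired mRNA is then translated less and in many cases shortened at its poly(A) tail and degraded, so a target can fall in RNA level, in protein level or in both. miR-183-5p is made from a cluster with miR-96 and miR-182 that is best known from sensory cells and is also expressed in immune cells. RNA-Seq reads only the RNA side of such an effect.

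The mature mouse sequences are shown to set the seed of miR-183-5p beside those of the other delivered miRNAs. They are taken from RefSeq (GRCm38.p6), 5′ to 3′, with the seed, bases 2 to 8, in capitals.
miR-183-5p, chr6:30169711-30169732, minus strand: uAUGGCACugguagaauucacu
miR-142a-5p, chr11:87756867-87756887, plus strand: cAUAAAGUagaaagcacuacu
miR-222-3p, chrX:19146901-19146923, minus strand: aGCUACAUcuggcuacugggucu
The 3 seeds differ from each other, so a stretch complementary to one is not complementary to another.

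The 3′ UTR of the most abundant coding transcript of each gene was searched on its own strand for the complement of the miR-183-5p seed, GTGCCAT (7mer-m8), for the same stretch followed by A, GTGCCATA (8mer), and for TGCCATA without the preceding G (7mer-A1). Of the 10 targets, 9 held a seed match and 4 of these were 8mers. Among 12562 tested genes with an annotated 3′ UTR, 8.89% held a seed match, 1.54% an 8mer and 14.2% any of the 3 forms. Genes enter lists of reported targets partly because they hold such a match, so this share is no independent finding and was not tested. The 3′ UTRs of the targets had a median of 1056.5 bases, against 914 for all these genes and 2345 for those with a site. For the other delivered miRNAs the count was low: a miR-142a-5p site (CTTTATA) was present in Itgb1 alone, where 20.6% of all genes held a site, and a miR-222-3p site (ATGTAGC) in Ppp2ca alone, where 15.5% did.

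The matches are printed because the rest of the results turns on the RNAs that carry them. Each is a stretch of the 3′ UTR in the GENCODE vM21 transcript (GRCm38), 5′ to 3′ on the strand of the mRNA, with the match in capitals and its genome position, and each lies in the last exon.
Ezr, 8mer, chr17:6738986-6738993, minus strand: gtggctcacggGTGCCATActtttctctag
Idh2, 8mer, chr7:80094874-80094881, minus strand: ggaatcacatgGTGCCATAtttagctacta
Ppp2ca, 8mer, chr11:52122108-52122115, plus strand: gaccaaaagatGTGCCATAtaaaatacaaa
Ppp2cb, 8mer, chr8:33619346-33619353, plus strand: tggaccaaaacGTGCCATActaatgatgag
Foxo1, 7mer-m8, chr3:52347215-52347221, plus strand: agataaggactGTGCCATtgggaatcatt
Itgb1, 7mer-m8, chr8:128732674-128732680, plus strand: ttaaaacctgtGTGCCATtgtgagttact
Pdcd4, 7mer-m8, chr19:53929448-53929454, plus strand: ctactttctaaGTGCCATgtttaggacct
Akap12, 7mer-m8, chr10:4358694-4358700, plus strand: tttgccccttgGTGCCATgtatttcagag
The paralogs Ppp2ca and Ppp2cb both carried their 8mer close to the stop codon, at base 134 of a 3′ UTR of 5804 bases and at base 152 of one of 247 bases. Ppp2ca held a 7mer-A1 match besides, at base 2288, and Akap12 a second 7mer-m8 match at base 747 of 1001. Egr1 held a 7mer-m8 match at base 404 of the 1216 bases of the 3′ UTR of Egr1-201, and its sequence is not printed here. The exception was Btrc, whose main transcript, Btrc-202, has a 3′ UTR of 348 bases without a match. Its matches stood in Btrc-206 alone, a transcript with 0.116% of the gene's TPM, so that 10 of 10 targets held a site when any coding transcript was allowed.

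**Figure D1:**
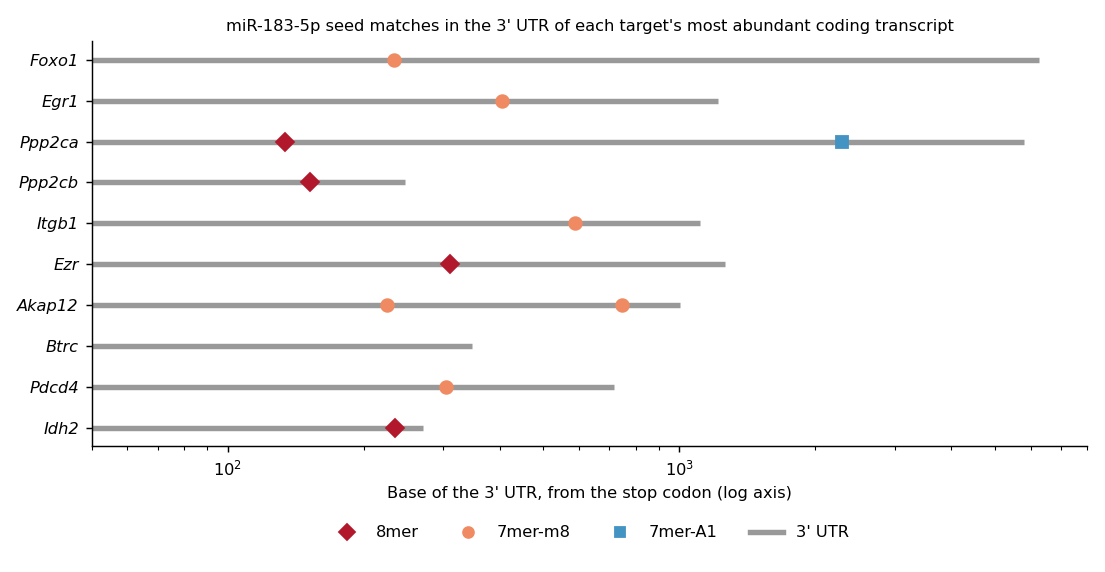
Position of miR-183-5p seed matches along the 3′ UTR of the most abundant coding transcript of each of the 10 targets, in bases from the stop codon on a log axis. Diamonds mark 8mers, circles 7mer-m8 and squares 7mer-A1 matches, and grey bars the annotated 3′ UTR, drawn from base 50 on. Every target but Btrc has a match, and the 8mers belong to Ppp2ca, Ppp2cb, Ezr and Idh2.

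The libraries held 16294611 to 22974853 estimated counts, of which 0.570% to 0.642% lay on transcripts that matched no annotated gene. The detection floor of 3 counts was 0.131 to 0.184 CPM (counts relative to the library total), a limit that covers counting error only. Macrophage markers were abundant, with a summed level of 860.1 to 1207 TPM over 10 genes, although Mrc1 stayed at or below 0.0971 TPM. The 10 endothelial markers summed to 15.0 to 34.1 TPM, most of it Egfl7, with Cldn5 at 0 in every library. Their sum was 17.0 to 28.0 TPM in miR-183-5p-EV and 16.7 to 30.5 TPM in ctrl-EV libraries. The 5 fibroblast markers summed to at most 1.01 TPM and the 5 dendritic cell markers to at most 6.23 TPM. No miRNA transcript was listed (0), so the level of the delivered miR-183-5p itself was not measured in these libraries.

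To determine whether EV-delivered miR-183-5p lowered the mRNAs of its reported targets, miR-183-5p-EVs were compared with ctrl-EVs in DESeq2 with libraries paired by their number. None of the tested targets passed an adjusted p of 0.05 in DESeq2 or in edgeR (0 of 9 in each). At an unadjusted p under 0.05 there was 1 target in DESeq2, Pdcd4. In edgeR Pdcd4 had an unadjusted p of 0.0460 (edgeR adjusted p = 0.464). Over all tested genes 58 were called, which is 0.417% with the 3779 genes that had no adjusted p counted as not called. Of all tested genes, 10.1% had an unadjusted p under 0.05. These calls depended on the tool and the libraries: edgeR with the same pairing called 0 of all genes (1492 at an unadjusted p under 0.05), and leaving out libraries in DESeq2 gave 6 genes without miR-183-5p-EV replicate 2 and 209 without ctrl-EV replicate 1. The single target with an unadjusted p under 0.05 in DESeq2 was Pdcd4, which lay higher and not lower. The median log2 fold change of the 9 targets was 0.024, against −0.0081 for all tested genes, and 4 of the 9 had a value below 0, against 51.5% of all genes. No target had miR-183-5p-EV and ctrl-EV libraries that did not overlap in normalized counts, a pattern shown by 1.47% of all genes towards lower and 1.72% towards higher values. Foxo1 alone was lower in 3 of 3 numbered pairs, as were 15.3% of all genes, and Pdcd4 alone was higher in 3 of 3, as were 13.5%. In bulk RNA, fewer cells that express a gene and less RNA per cell cannot be told apart. The labels do not say that the libraries of a group came from separate cultures, so the p-values measure the spread between these libraries, which may be technical.

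**Figure D2:**
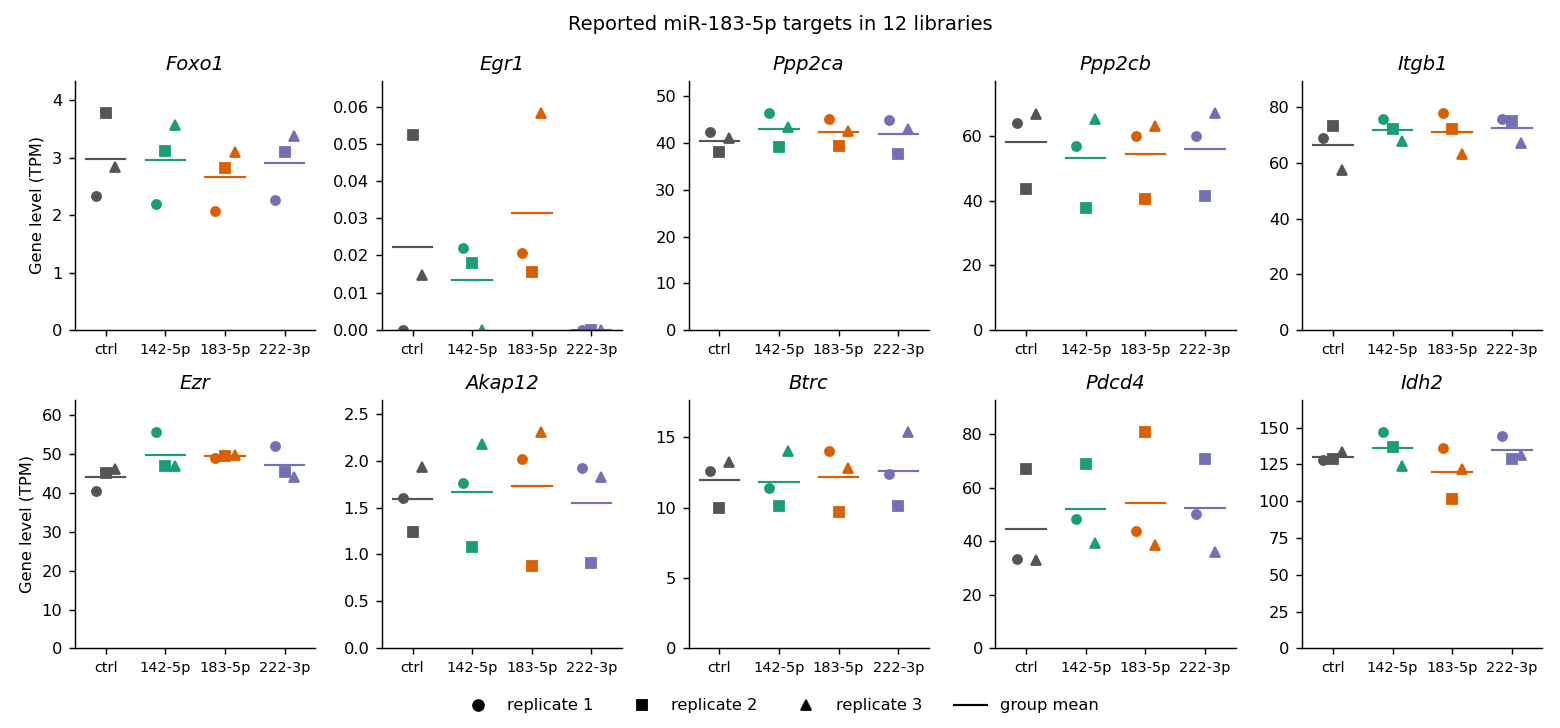
Gene level in TPM (each vertical axis from 0) of the 10 targets in the 12 libraries, by the mimic in the EVs. Symbols give the replicate number and lines the group mean of 3 libraries. In Pdcd4, Ppp2cb, Akap12, Btrc and Ppp2ca the libraries numbered 2 do not overlap with the others, while the group means lie close together. The share of all genes with such a separation was not computed.

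Per length, the targets spanned a wide range of levels in ctrl-EV libraries. Idh2 led with 130.1 ± 2.93 TPM (SD, n = 3), followed by Itgb1 with 66.6 ± 8.10 TPM and Ppp2cb with 58.3 ± 12.7 TPM. Pdcd4 (44.5 ± 19.6 TPM), Ezr (44.0 ± 3.04 TPM) and Ppp2ca (40.6 ± 2.16 TPM) came next. From Itgb1 to Ezr the means of neighbours in this order differed by less than the larger of their SDs, and those of Ezr and Ppp2ca by slightly more than either SD. Btrc stood at 11.9 ± 1.71 TPM. Foxo1 (2.98 ± 0.727 TPM) and Akap12 (1.59 ± 0.347 TPM) were expressed at a low level, and Egr1 was close to 0.

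The transcription factors came first. FOXO1 is a forkhead factor that AKT keeps out of the nucleus and that drives genes of cell cycle arrest and metabolism when it is nuclear. Foxo1 (chromosome 3, 52268336 to 52353221, GRCm38, plus strand) had 290.1, 504.3 and 360.6 normalized counts in ctrl-EV libraries 1, 2 and 3, where a normalized count is an estimated count divided by the library's size factor and length offset. In miR-183-5p-EV libraries it had 253.9, 410.4 and 348.3. Each miR-183-5p-EV library was below the ctrl-EV library of its number, yet the groups overlapped widely. The log2 fold change was −0.18 ± 0.13 (SE), with a 95% interval from a fall of 26.3% to a rise of 5.47% (DESeq2 adjusted p = 0.605). Its single listed transcript carries the match in the annotation, and the use of shorter 3′ ends was not tested.

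EGR1 is an immediate early zinc finger factor, induced within minutes of growth factor or stress signals. Egr1 (chromosome 18, 34859823 to 34864984, plus strand) had 0, 2 and 1 estimated counts in ctrl-EV libraries. Counts were 1, 1 and 4 after miR-183-5p-EVs, 1, 1 and 0 after miR-142-5p-EVs, and 0 in every library of miR-222-3p-EVs. With 11 counts in all and at most 4 in a library, its level was at or near the floor of 3 counts. Neither a fall nor a small rise was detectable at this depth. Among related genes, Egr4 was listed at 0 in every library. As examples chosen after their values were seen, Fos, a subunit of AP-1, stood between 6.39 and 24.6 TPM and Atf3, a stress-induced factor, between 49.7 and 107 TPM over the 12 libraries. Of the 18 genes of the EGR family, their cofactors and immediate early genes, 17 were tested and 0 were called in either comparison.

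PPP2CA and PPP2CB are the alternative catalytic subunits of protein phosphatase 2A (PP2A), which removes phosphate from serine and threonine. Ppp2ca (chromosome 11, 52098681 to 52127778, plus strand) had 4138, 4014 and 4112 normalized counts with ctrl-EVs and 4336, 4510 and 3769 with miR-183-5p-EVs. Libraries 1 and 2 were higher and library 3 lower than their ctrl-EV partners. DESeq2 gave a log2 fold change of 0.035 ± 0.083, and the 95% interval ran from a fall of 8.45% to a rise of 14.7% (DESeq2 adjusted p = 0.896). Ppp2cb (chromosome 8, 33599625 to 33619441, plus strand) had 1189, 873 and 1276 normalized counts with ctrl-EVs and 1098, 884 and 1060.5 with miR-183-5p-EVs. Here library 2 was level with its partner and the other two were lower. Its log2 fold change of −0.12 ± 0.097 had an interval from a fall of 19.6% to a rise of 4.55% (DESeq2 adjusted p = 0.632). With miR-142-5p-EVs, for which Ppp2cb has no site, the log2 fold change was −0.19 ± 0.097 (DESeq2 adjusted p = 0.840). These contrasts share the ctrl-EV libraries.

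Integrin beta 1, encoded by Itgb1, pairs with several alpha chains into receptors for extracellular matrix. Itgb1 (chromosome 8, 128685654 to 128733200, plus strand) had 3598, 4125 and 3089.5 normalized counts with ctrl-EVs and 4004, 4430.2 and 2998 with miR-183-5p-EVs. The groups overlapped, with libraries 1 and 2 higher and library 3 lower than their partners. Its log2 fold change was 0.072 ± 0.078, and the interval ended at a fall of 5.40% and a rise of 16.8% (DESeq2 adjusted p = 0.751). Ezrin, encoded by Ezr, links the plasma membrane to cortical actin. Ezr (chromosome 17, 6738041 to 6782784, minus strand) had 1712, 2057 and 2006 normalized counts with ctrl-EVs and 2041, 2456 and 1905 with miR-183-5p-EVs. Its groups overlapped in normalized counts, the scale of the test. In TPM, 49.0, 49.6 and 49.8 with miR-183-5p-EVs were all above 40.6, 45.2 and 46.3 with ctrl-EVs. How many of all genes separate in this way in TPM was not computed. The log2 fold change was 0.14 ± 0.12 (95% interval −0.097 to 0.37, DESeq2 adjusted p = 0.676). Of the targets with an 8mer, Ezr and Ppp2ca had estimates above 0 and Idh2 and Ppp2cb below 0, none of them called. Ezr overlaps Sytl3 on the opposite strand, whose mean level was 0.335 TPM.

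AKAP12 is a scaffold that tethers protein kinase A and protein kinase C near the membrane. Akap12 (chromosome 10, 4266380 to 4359470, plus strand) had 139, 115 and 171 normalized counts with ctrl-EVs and 172, 89.3 and 181 with miR-183-5p-EVs. Library 2 was lower and the others were higher than their partners. With these low counts the log2 fold change of 0.024 ± 0.20 left an interval from a fall of 22.8% to a rise of 33.8% (DESeq2 adjusted p = 0.977), and its sign changed in 5 of the fits that leave out libraries. BTRC is the F-box protein that selects phosphorylated substrates such as beta-catenin and IκBα for an SCF ubiquitin ligase. Btrc (chromosome 19, 45363734 to 45530013, plus strand) had 366, 313 and 395 normalized counts with ctrl-EVs and 403, 329.7 and 337 with miR-183-5p-EVs. Its log2 fold change was −0.0043 ± 0.14 (95% interval −0.28 to 0.27, DESeq2 adjusted p = 0.995). A minor noncoding transcript, Btrc-205, shares 192 bases at 96.4% to 100% identity with Rpl6, Rpl6l and 4 predicted genes, and it held 0.0621% of the Btrc TPM, so the gene's level is little exposed to reads shared with them.

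Idh2 encodes the mitochondrial, NADP-dependent isocitrate dehydrogenase. Idh2 (chromosome 7, 80094846 to 80115392, minus strand) had 2731, 2957 and 2923 normalized counts with ctrl-EVs and 2858, 2546 and 2354 with miR-183-5p-EVs. Libraries 2 and 3 were lower than their partners and library 1 was higher. The log2 fold change was −0.16 ± 0.11 (DESeq2 adjusted p = 0.576), with an interval from a fall of 22.5% to a rise of 3.71%. Cells given miR-142-5p-EVs had 3055, 3263 and 2414, and those given miR-222-3p-EVs had 3099, 3131 and 2528. In each number the miR-183-5p-EV library was the lowest of these 3 mimics. The share of all genes with this order was not computed. The transcript with the 8mer, Idh2-201, held 77.1% to 95.7% of the gene's TPM, and the share was lowest, 77.1% to 85.1%, in the libraries numbered 2.

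PDCD4 binds the helicase eIF4A and restrains translation initiation. Pdcd4 (chromosome 19, 53892231 to 53929860, plus strand) had 938, 2033 and 954 normalized counts with ctrl-EVs and 1218, 2668 and 979.7 with miR-183-5p-EVs. Each miR-183-5p-EV library was above its partner, but the range from library 1 to library 2 within a group exceeded the difference between groups. The log2 fold change was 0.27 ± 0.13 (unadjusted p = 0.0374, DESeq2 adjusted p = 0.377), with a 95% interval of 0.016 to 0.52. The corresponding value was 0.22 ± 0.13 for the miR-142-5p mimic and 0.23 ± 0.13 for the miR-222-3p mimic, in contrasts that share the same ctrl-EV libraries.

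Coding transcripts of Pdcd4, and to a far smaller extent those of Btrc and Itgb1, divided between RNAs with and without a match. Pdcd4-201, with a 3′ UTR of 717 bases, and the minor Pdcd4-202 hold it, while Pdcd4-203, with 39.3% of the gene's TPM, ends after 186 bases of 3′ UTR and does not. Transcripts with a site stood at 23.48, 37.43 and 25.002 TPM with ctrl-EVs and at 27.6, 53.8 and 18.3 TPM with miR-183-5p-EVs. Pdcd4-203 stood at 9.72, 29.7 and 8.07 TPM and at 16.4, 27.1 and 20.1 TPM. The groups overlapped for both kinds of transcript, and the direction of the paired differences was not shared between libraries for either. RNA with a site made up 70.3%, 55.7% and 75.6% of Pdcd4 TPM with ctrl-EVs and 62.7%, 66.5% and 47.7% with miR-183-5p-EVs. The share was 55.8%, 57.2% and 57.7% for the miR-142-5p mimic and 53.2%, 68.4% and 54.2% for the miR-222-3p mimic. These shares depend on how Salmon divides reads between transcripts that have most exons in common. For Akap12, transcripts with a match held 19.9% to 100% of the gene's TPM over the 12 libraries. The rest lay on Akap12-203, a noncoding transcript with 20.4% of the gene's TPM, which was not searched.

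**Figure D3:**
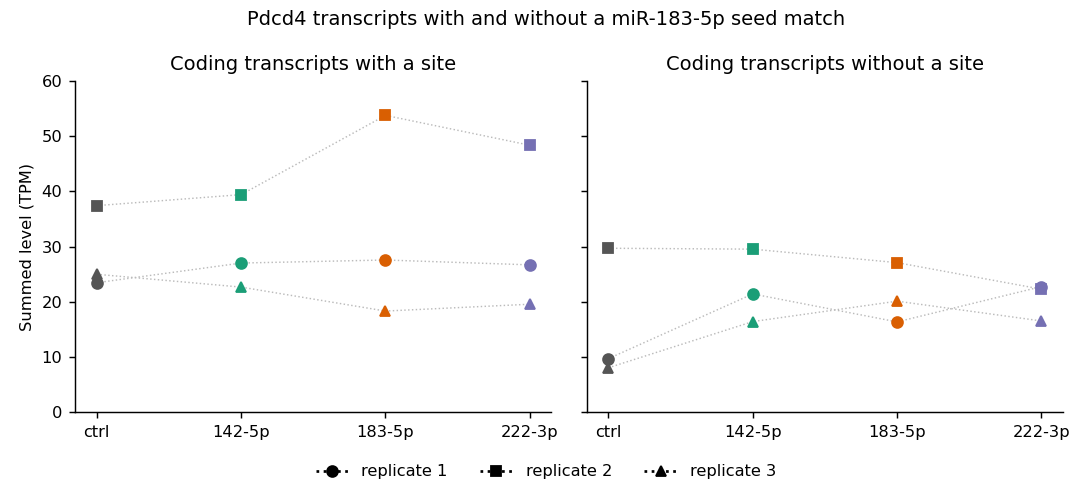
Summed TPM of the coding Pdcd4 transcripts that hold a miR-183-5p seed match in the 3′ UTR (left) and of the one that does not (right), by mimic. Symbols and dotted lines follow the replicate number. Replicate 2 is highest for transcripts with a site in every group, and miR-183-5p-EV libraries overlap with those of ctrl-EVs in both panels.

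To test whether any target responded to miR-183-5p more than to the other miRNAs, miR-183-5p-EVs were compared with the mean of the other two mimics, miR-142-5p and miR-222-3p. This contrast does not use the ctrl-EV libraries. Again 0 of 9 targets were called (0 at an unadjusted p under 0.05, and 0 by edgeR), while 0.0144% of all tested genes were called and 2.14% had an unadjusted p under 0.05. The median log2 fold change was 0.014 for the targets and −0.0037 for all genes. Idh2 lay lowest at −0.17 ± 0.093, with an interval from a fall of 21.5% to a rise of 1.01% (unadjusted p = 0.0713, DESeq2 adjusted p = 0.9997). Foxo1 was next at −0.12 ± 0.11, with an interval from a fall of 21.4% to a rise of 7.33% (DESeq2 adjusted p = 0.9997). Both were lower in 3 of 3 numbers, as were 12.3% of all genes, and 0 targets were higher in 3 of 3, against 11.8%. The other 7 targets lay between −0.011 for Itgb1 and 0.086 for Akap12. No target separated without overlap in normalized counts from both other mimics, as 0.388% of all genes did. In the contrasts of the other mimics with ctrl-EVs 0 targets were called, where 0.0575% of all genes were for the miR-142-5p mimic and 0.0359% for the miR-222-3p mimic.

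**Figure D4:**
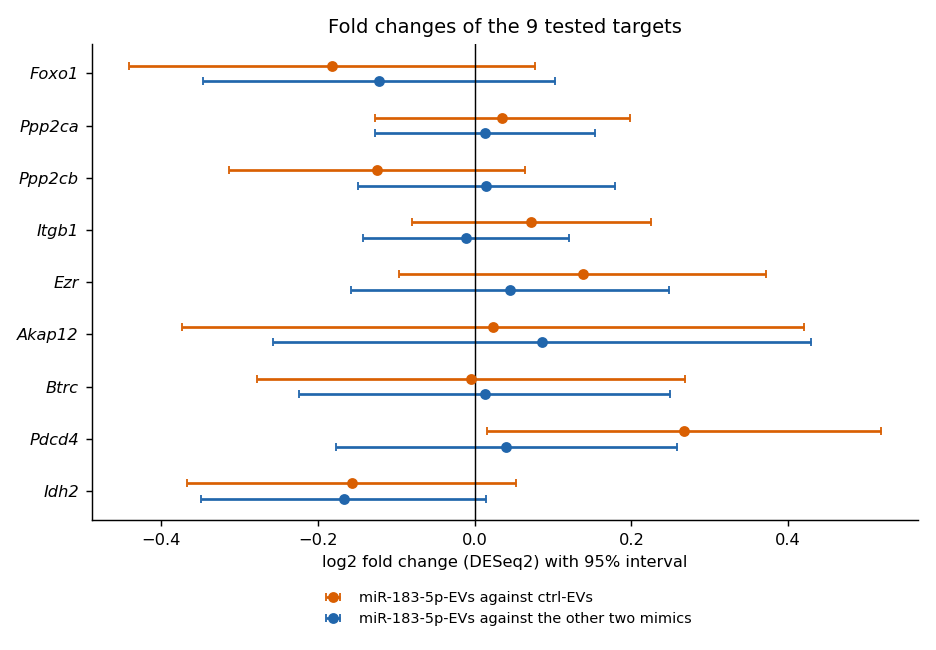
log2 fold changes of the 9 tested targets from DESeq2 with 95% intervals, for miR-183-5p-EVs against ctrl-EVs (orange) and against the other two mimics (blue). Every interval spans 0 except that of Pdcd4 against ctrl-EVs, which runs from 0.016 to 0.52 before adjustment.

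The replicate number moved the targets more than the mimic did. In a split of the variation of log2 normalized counts, the number took a median of 84.0% over the 9 targets and the mimic 4.58%, against 69.5% and 7.98% over all tested genes. The number took 93.3% for Itgb1, 91.5% for Pdcd4 and 91.2% for Foxo1, and as little as 43.7% for Idh2. For Idh2 the mimic took 22.2%, and a larger part, 34.1%, fell to neither. These shares were not tested. The libraries numbered 2 were 2.10-fold above those numbered 1 and 3 for Pdcd4 in normalized counts (1.80-fold in TPM). They were at 0.759-fold for Ppp2cb (0.650-fold in TPM) and at 0.616-fold for Akap12 (0.527-fold in TPM). For these 3 genes the libraries numbered 2 did not overlap with the other 8 on either scale. The share of all genes with such a separation was not computed, so it is not shown to be particular to the targets. For Ezr, Idh2 and Ppp2ca the direction depended on the scale, at 1.14-fold, 1.08-fold and 1.03-fold in normalized counts and 0.976-fold, 0.928-fold and 0.885-fold in TPM. What the number stands for is not stated in the labels.

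To place the targets among other mRNAs with a seed match, fold changes against ctrl-EVs were listed by the form of the match. The median log2 fold change was 0.032 for 194 genes with an 8mer, 0.041 for 923 with a 7mer-m8 match and 0.047 for 670 with a 7mer-A1 match alone, against −0.018 for 10775 genes without a match. Of the genes with an 8mer 43.8% had a value below 0, against 53.7% of those without a match. The same classes had medians of 0.030, 0.037 and 0.038 with miR-142-5p-EVs, against −0.0075 without a match, in a contrast that shares the ctrl-EV libraries. With miR-222-3p-EVs, against the same ctrl-EV libraries, they were 0.028, 0.022 and 0.023, and −0.0065 without a match. Against the other two mimics the medians were 0.014, 0.0073 and 0.026, and −0.0076 without a match. The 247 genes with 2 or more sites, also counted in these classes, had a median of 0.10 with miR-183-5p-EVs, and 30.8% lay below 0. Their median was 0.084 with miR-142-5p-EVs, 0.063 with miR-222-3p-EVs and 0.026 against the other two mimics. Genes with a site had longer 3′ UTRs, as given above, and the part of UTR length in these medians was not tested. Of the 13 genes called lower with miR-183-5p-EVs 11 had a 3′ UTR to search. A match was in 1 of the 11, against 14.2% of all searched genes, and this was Clptm1, a gene chosen after its value was seen (log2 fold change −0.41 ± 0.11, DESeq2 adjusted p = 0.0456). Of the 45 genes called higher 43 had a 3′ UTR to search and 12 held a match. None of the 58 genes was called by edgeR (0).

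**Figure D5:**
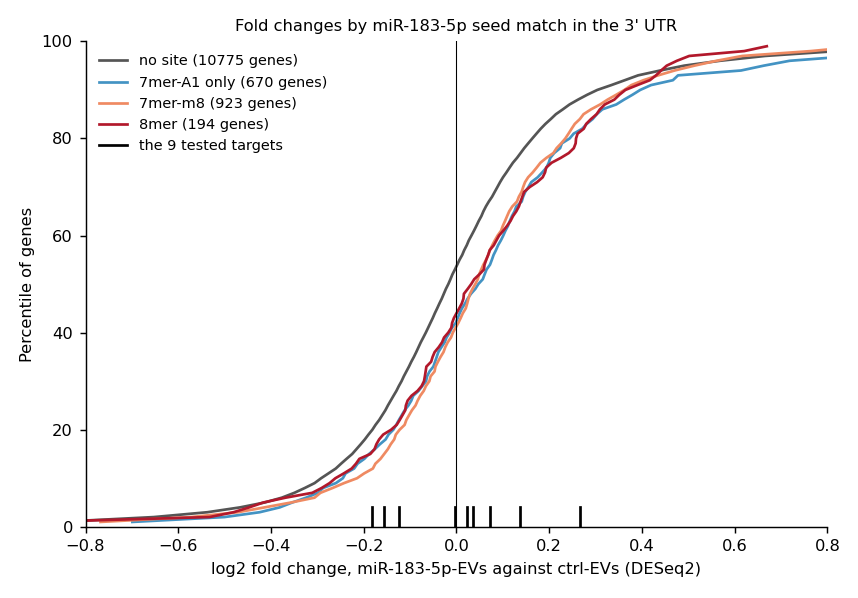
Percentiles of the log2 fold change of miR-183-5p-EVs against ctrl-EVs for tested genes by the miR-183-5p match in their 3′ UTR, with black ticks for the 9 tested targets. The curves of genes with a match lie to the right of the curve without one around the median, and the ticks fall on both sides of 0.

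The partners of the targets were examined list by list, with the lists written by pathway. In the contrast with ctrl-EVs and in that with the other two mimics, 0 genes of the 9 lists were called in either direction. FOXO factors, regulators and targets had 17 of 19 genes tested and a median log2 fold change of 0.11 against ctrl-EVs. Against the other two mimics the median was 0.032. Over all tested genes these medians were −0.0081 and −0.0037.

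For PP2A, 19 of 20 scaffold, regulatory and modifying genes were tested, with a median of 0.044. Strn, a striatin that serves as a regulatory subunit, had the lowest p (0.35 ± 0.16, DESeq2 adjusted p = 0.340). Among integrin alpha chains and adaptors, 17 of 19 were tested with a median of 0.14, and Ilk, the integrin-linked pseudokinase, had the lowest p (−0.25 ± 0.093, DESeq2 adjusted p = 0.204). Its log2 fold change was −0.24 ± 0.094 with miR-222-3p-EVs and −0.19 ± 0.094 with miR-142-5p-EVs, again against the same ctrl-EV libraries. All 10 genes of the ezrin, radixin and moesin group with their ligands and kinases were tested, with a median of 0.054, led by the kinase Slk (0.26 ± 0.11, DESeq2 adjusted p = 0.345). The 13 SCF subunits and BTRC substrates had a median of 0.0088, led by Rest, a repressor of neuronal genes (0.23 ± 0.097, DESeq2 adjusted p = 0.298). Against the other two mimics the medians were 0.035 for the PP2A list, 0.016 for the integrin list, 0.043 for the ezrin list and 0.0026 for the SCF list.

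The lowest adjusted p of the partners named belonged to a gene that works with PDCD4. Eif4a2, a paralog of the helicase that PDCD4 binds, had 4028, 6143 and 3569 normalized counts with ctrl-EVs and 5082, 7993 and 3969 with miR-183-5p-EVs. All 3 libraries were above their partners and the groups overlapped. Its fitted log2 fold change was 0.29 ± 0.088 (DESeq2 adjusted p = 0.0902), and against the other two mimics it was 0.11 ± 0.076 (DESeq2 adjusted p = 0.9997). The 7 translation genes had a median of 0.10. Of 17 AKAP and protein kinase A genes 16 were tested, with a median of 0.030, led by Akap13 (0.34 ± 0.16, DESeq2 adjusted p = 0.373). The 12 genes of the IDH family and the tricarboxylic acid cycle had a median of 0.019, led by the cytosolic Idh1 (0.14 ± 0.099, DESeq2 adjusted p = 0.602). The EGR and immediate early list had a median of −0.015, with the lowest p for Fosb (0.76 ± 0.32, unadjusted p = 0.0163), for which DESeq2 gave no adjusted p. Against the other two mimics the medians were 0.016 for the translation, −0.024 for the AKAP, 0.035 for the IDH and 0.0091 for the EGR list.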

How the data were processed

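Polyadenylated RNA of RAW 264.7 cells was sequenced by the authors as 151-nt pairs from stranded libraries and assigned to Ensembl mouse transcripts with Salmon. The files deposited by the authors hold, per transcript, an estimated count, not normalized between libraries, a TPM value scaled to the same sum in each library, and an effective length. Whether strand was used and which filters applied is not given in the sources used here. Because Salmon divides reads among similar transcripts, transcript shares are estimates.

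Of 118783 listed transcripts 116710 (98.3%) matched GENCODE vM21 (GRCm38) by identifier. Counts were summed by gene, rounded and passed to DESeq2 1.42.0 (R 4.3.3) with a length offset. Genes that reached 10 counts in 3 or more libraries were tested in 1 model of the 4 groups with the replicate number as a block. The tests were two-sided Wald tests. The Benjamini-Hochberg adjustment ran over the genes left by DESeq2's own filter on mean counts. DESeq2 gave no adjusted p for 3779 genes in the contrast with ctrl-EVs. Samples were grouped by their titles. Libraries of the same number deviated together from their group means (mean r = 0.608 over 18 pairs, lowest 0.409), so the numbers were taken to pair libraries. The mean r of −0.287 over 36 other pairs largely follows from subtracting each group's mean and is no separate support. Alternatives were edgeR 4.0.16, limma 3.58.1 on log2 TPM, other filters and scalings, and leaving out libraries. The fits were tested on simulated data with known changes.

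The members, the partner and marker lists and the tests were chosen with earlier results of these data known. The genes named were the 10 members, any called partner gene, the partner with the lowest p in each list, and genes sharing near-identical sequence with a member, and 1 further gene that the rule names is not reported here. Mature miRNAs came from RefSeq, where 3 of 3 mouse miRNAs matched, and the sequence of the control mimic was not analysed here.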

Additional observations from a re-analysis of the deposited data

How the results depend on the processing

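No target was called (0) in either comparison under any alternative run that gave an adjusted p (133 of 162 values against ctrl-EVs and 189 of 189 against the other two mimics). The lowest adjusted p of a target was 0.128, for Pdcd4 against ctrl-EVs without ctrl-EV replicate 3 in DESeq2, and 0.9997 against the other two mimics. The median log2 fold change of the targets ranged from −0.080 to 0.11 against ctrl-EVs, and from −0.031 to 0.055 against the other two mimics, when libraries were left out. Egr1 had too few counts for the main test, and low counts limited Akap12. Seed matches were in 9 targets, and in 10 with any coding transcript.

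Without the replicate block, that is, without pairing libraries by number, DESeq2 called 0 of all genes in both comparisons, and so did edgeR and limma with either pseudocount. The block changed no call of a target. Without it the log2 fold change of Pdcd4 against ctrl-EVs was 0.31 ± 0.49 (DESeq2 unadjusted p = 0.526), so its interval above 0 depended on the pairing. The 58 genes called against ctrl-EVs became 32 without the length offset and 3 with only the groups compared. Against the other two mimics, 2 genes became 12 without a filter on low counts, 1 with a mean of at least 50 counts, 0 without the length offset and 1 with only the groups compared. Leaving out libraries gave 6 to 209 genes against ctrl-EVs: 209 without ctrl-EV replicate 1, 148 without ctrl-EV replicate 3, 6 without miR-183-5p-EV replicate 2, 13 without miR-183-5p-EV replicate 3, 14 without number 2 and 25 without number 3. It gave 0 to 4 against the other two mimics, with 4 without miR-142-5p-EV replicate 2, 0 without miR-183-5p-EV replicate 3 and 1 without number 3. The cause was not tested.

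Signs changed for 3 targets against ctrl-EVs and for 6 against the other two mimics. Against ctrl-EVs, Btrc was 0.011 with a mean of at least 50 counts, and 0.019 and 0.020 in limma with a pseudocount of 1 and 0.1. Against the other two mimics, Btrc was −0.0072 without the length offset and −0.0054 and −0.0059 in limma, and Ppp2ca was −0.0013 in both limma fits. When libraries were left out, Akap12 ranged from −0.13 to 0.19, Btrc from −0.11 to 0.11 and Ppp2ca from −0.029 to 0.12 against ctrl-EVs. Against the other two mimics, Btrc ranged from −0.11 to 0.12, Ezr from −0.013 to 0.14, Itgb1 from −0.039 to 0.037, Pdcd4 from −0.079 to 0.15, Ppp2ca from −0.035 to 0.055 and Ppp2cb from −0.031 to 0.071. Foxo1 and Idh2 kept their sign in every fit of both comparisons, but their size moved. When libraries were left out, Idh2 ranged from −0.27 to −0.040, Foxo1 from −0.26 to −0.11, Ppp2cb from −0.19 to −0.052, Pdcd4 from 0.15 to 0.38, Itgb1 from 0.031 to 0.13 and Ezr from 0.025 to 0.28 against ctrl-EVs, none of them called.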
